A study of Bos taurus and Bos grunniens and Bubalus bubalis with 15 samples.

Results

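The genes described here build and run the first stretch of the secretory pathway, in which new proteins enter the endoplasmic reticulum (ER), are trimmed and folded, and travel to the Golgi and back. They were chosen by gene symbol alone, as every gene on the array named as a SEC11, SEC13, SEC22, SEC23, SEC24, SEC31, SEC61, SEC62 or SEC63 protein, a coatomer (COP) subunit, a TMED cargo receptor, a translocon-associated (SSR) protein, a signal recognition particle (SRP) protein, a signal peptidase (SPCS) subunit, a KDEL receptor or a numbered PDIA isomerase. This gave 53 genes with 84 of the 24016 probe sets for transcripts, and each gene was represented by the probe set that was brightest on average over the 15 arrays. Of these, 51 genes were bright enough to test. COPG2, a coatomer subunit, and SEC31B, a minor form of an outer COPII coat protein, were not.

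The muscle was longissimus dorsi, which runs along the spine, from 15 animals in 5 groups of 3, each aged 36 months and each read on its own bovine Affymetrix array. The groups were yak from Qinghai and buffalo from Guangxi, both of unstated sex, and females, castrated males and intact males of Qinchuan cattle, a Chinese beef breed. The cattle shared a narrow birth window, background and rearing. No genetic change or agent is stated for any group, and each group's 3 arrays are labelled biological replicates. Values are the authors' array intensities, which have no depth of reading, and 3 arrays per group limit the precision. In yak and buffalo the probes are cattle probes, so a change in transcript level and a poorer or better sequence match cannot be told apart.

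A protein bound for secretion is recognised by the signal recognition particle as its signal peptide leaves the ribosome, and is threaded through the SEC61 translocon into the ER. There the signal peptidase removes the signal peptide and protein disulfide isomerases help it fold. COPII-coated vesicles carry cargo to the Golgi, COPI-coated vesicles bring escaped ER residents back, and p24 (TMED) proteins and KDEL receptors choose what is loaded. Collagen is a bulky cargo of this route, made in muscle mainly by fibroblasts, and the question put to the data was whether the route's transcripts follow those of collagen over the 5 groups.

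The 15 arrays had medians of 6.71 to 6.81 on the log2 scale used throughout, log2(intensity + 16), on which a fold change of a dim gene is understated. The tissue label was borne out by its markers: 10 of 10 muscle fibre markers measured were above the brightness threshold on average, with summed intensities of 100465 to 128820 over all arrays. Intact male 1 stood apart: the median of the 51 genes, set against their means over castrated males and females, was 0.5 on that array and -0.22 to 0.18 on the other 14. For castrated males and for females against intact males, the median, the number of estimates below 0 and the number of genes called are also given without it. The orders of group means, the rho values and the counts of groups that do not overlap use all arrays. Actin signal at the 3′ over the 5′ end, a proxy for RNA integrity, was 1.49 to 1.93 in yak and 1.42 to 1.73 in buffalo. In cattle it was 1.22 to 1.33 in females, 1.24 to 1.27 in castrated males and 1.17 to 1.48 in intact males. GAPDH gave 1.2 to 1.26 in yak and 1.22 to 1.5 in buffalo. Cattle values of GAPDH spanned 1.17 to 1.2 (females), 1.17 to 1.19 (castrated males) and 1.13 to 1.34 (intact males). Yak thus lay above all cattle for actin but within their range for GAPDH. Among cattle the highest ratios, 1.48 for actin and 1.34 for GAPDH, were those of intact male 1. The other cattle arrays reached at most 1.39 and 1.2. Intact male 1 also had the lowest muscle fibre sum of all arrays (100465). The part of these in its high median was not tested. The part of probe mismatch in the yak and buffalo ratios was not tested.

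Collagen was measured as an index, the mean log2 level of COL1A1 and COL1A2, the chains of type I collagen, and COL3A1, the type III chain. The index averaged 8.56 in yak, 9 in buffalo, 9.91 in females, 10.18 in castrated males and 12.72 in intact males. Intact males lay apart, at 12.52 to 13, against 9.65 to 10.22 in females and 10.08 to 10.34 in castrated males. Yak, at 8.31 to 8.69, overlapped buffalo, at 8.43 to 9.63. Since intact males form a cluster of their own on this axis, slopes on it were fitted with a mean for each group. A fit over the 15 arrays without group means is given below only as an alternative run.

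In the machinery, 30 of 51 genes (58.8%) had their highest group mean in intact males, against 23.4% of all probe sets tested, and 26 of 51 (51%) had their lowest in buffalo, against 32.7%. Among the cattle groups alone, intact males were highest for 40 of 51 genes (78.4%), against 39.4% of all probe sets. The order of the 5 group means matched that of collagen with a median Spearman rho of 0.4 over the 51 genes and 0.1 over all probe sets, and rho was 0.9 or more for 11 genes (21.6%) against 8.97%. These rho values describe 5 points that share the same arrays and carry no test. COPB2, a coatomer subunit, and SEC61A1, the pore-forming subunit of the translocon, followed the collagen order exactly. KDELR3 was 1 of the genes with a rho of 0.9, and had the widest range over groups of these (2.92 on the log2 scale). SRP68 and SRP72, protein subunits of the signal recognition particle, ran in exactly the opposite order. Some of these orders rest on small steps. Group means of females and castrated males were 7.936 and 7.931 for SRP68 and 9.616 and 9.637 for COPB2. The probe sets of SRP72 did not share 1 sign in castrated minus intact males or in buffalo minus cattle. 

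**Figure D1:**
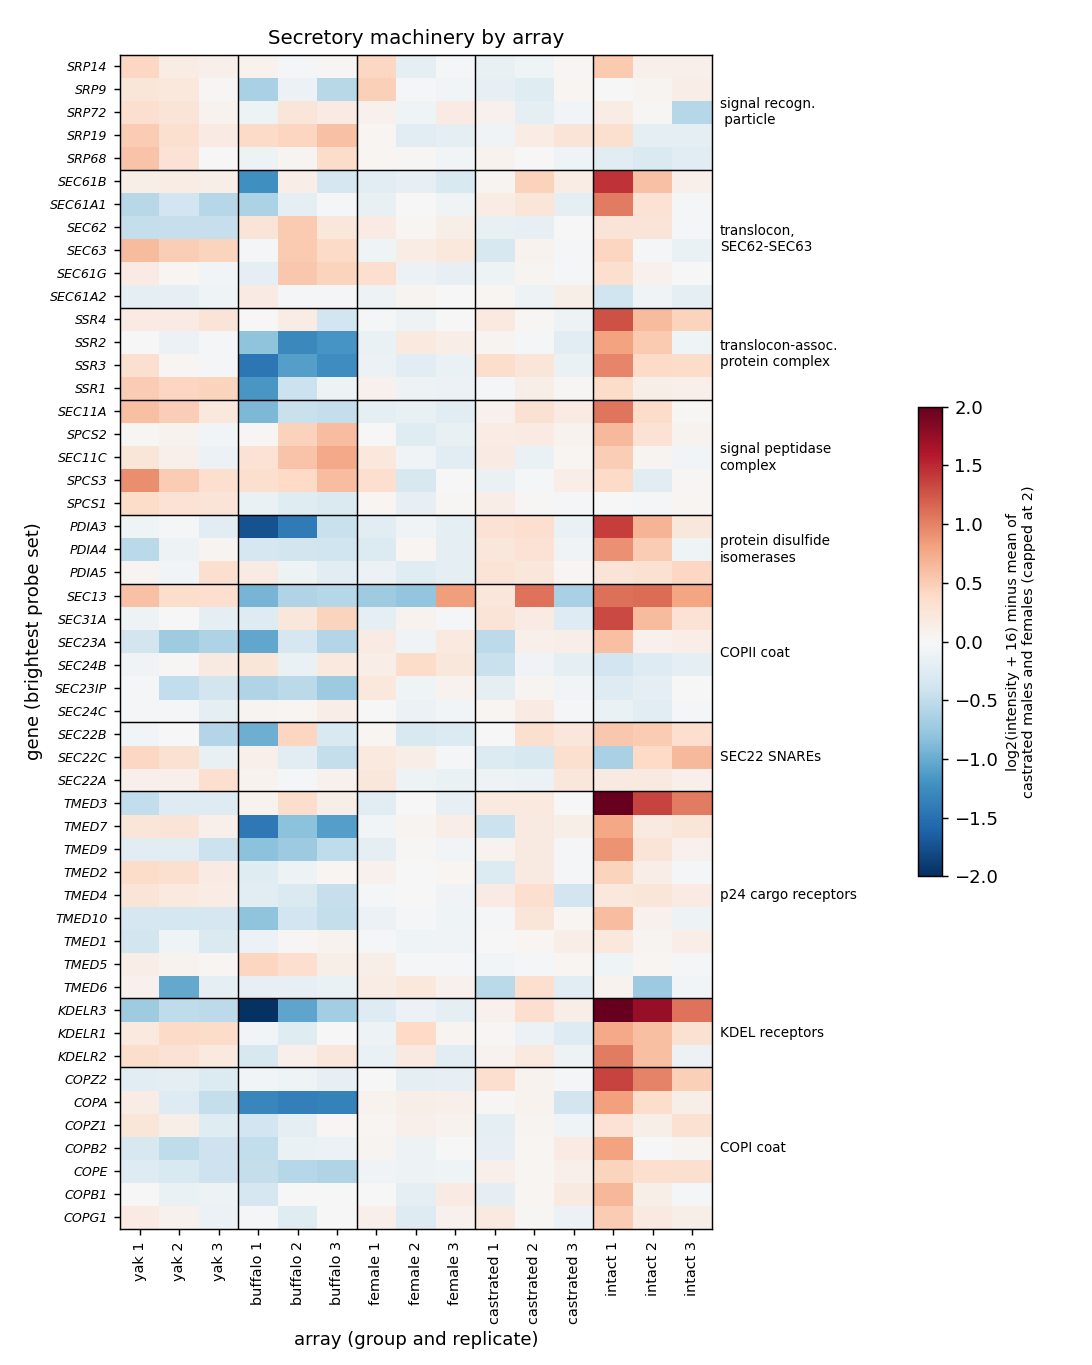
The 51 tested genes (rows, in 10 role groups) on each of the 15 arrays (columns), as log2(intensity + 16) minus the gene's mean over castrated males and females, with colour capped at 2. Intact male 1 is high for most rows, KDELR3 and TMED3 are high on all 3 intact male arrays, and buffalo arrays are low for COPA, SSR2, SSR3 and TMED7.

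Of the 51 genes, 2 fell in castrated males relative to intact males. These were KDELR3 and TMED3, with an adjusted p under 0.05 in limma after Benjamini-Hochberg adjustment over all 14409 probe sets, and 0 genes rose. The share called was 3.92%, against 1.46% of all probe sets in either direction (0.84% lower and 0.625% higher). The estimate was below 0 for 41 of 51 genes (80.4%), against 50% of all probe sets, with a median log2 fold change of -0.25 over the genes and 0 over all. Over all 7139 annotated genes tested, each at its brightest probe set, 52.9% were below 0 and the median was -0.02. Every castrated male was below every intact male for 13 genes (25.5%), against 13.5% of all probe sets, and above for 2 genes (3.92%), against 11.3%. At an unadjusted p under 0.05, 9 genes were lower (17.6%), against 11.2%, and 1 was higher (1.96%), against 9.27%. Without intact male 1 the median was -0.12, with 40 of 51 estimates below 0 and the same 2 genes called. Macrophage markers, summed over 15 genes, stood at 2882 to 4520 in castrated males and at 42318, 12166 and 7981 in intact males 1, 2 and 3, and their part in these differences was not tested.

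Of the 51 genes, 6 fell in females relative to intact males, a comparison that shares its intact males with the previous one. KDELR3, TMED3, COPZ2, PDIA5, SEC22B and SSR4 fell and 0 genes rose, a share called of 11.8%, against 5.5% of all probe sets in either direction (3.37% lower and 2.12% higher). The estimate was below 0 for 42 genes (82.4%), against 48.8%, with a median of -0.26 over the genes and 0.01 over all probe sets. Over the 7139 annotated genes 53.3% were below 0 and the median was -0.03. Every female was below every intact male for 21 genes (41.2%), against 17.4% of all probe sets, and above for 3 (5.88%), against 15.7%. Without intact male 1 the median was -0.15, with 39 estimates below 0 and 5 genes called, and SEC22B did not pass (adjusted p = 0.0774). At an unadjusted p under 0.05, with all arrays, 17 genes were lower (33.3%), against 14.5%, and 2 were higher (3.92%), against 13.2%.

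The number of genes called depended on single arrays in both comparisons. For castrated against intact males it came to 0 without intact male 2 or any of the 3 castrated males, and was 6 when intact male 3 was left out. For females against intact males it was 16 when intact male 3 was left out, 2 for intact male 2 or female 1, and 1 for female 2 or female 3. With intact male 3 left out the share of all probe sets called was 6.91% for castrated and 15.2% for female against intact males. KDELR3 in females against intact males passed in every alternative run, with adjusted p from 0.000602 to 0.0429.

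**Figure D2:**
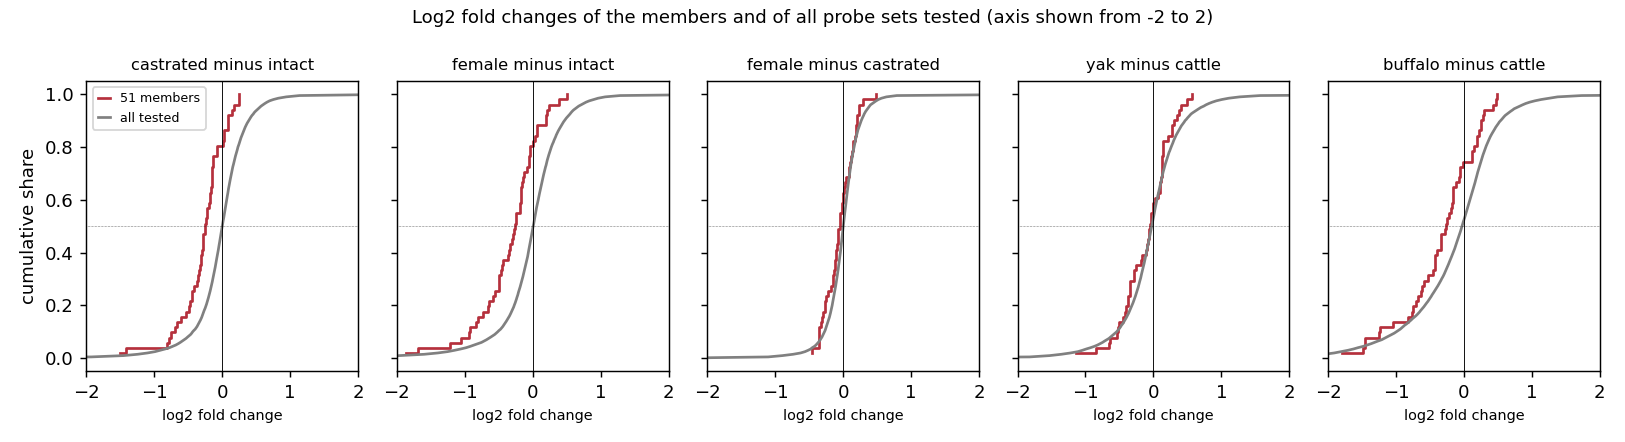
Cumulative share (vertical axis) of the log2 fold changes (horizontal axis) of the 51 genes (red) and of all 14409 probe sets tested (grey), in 5 panels, 1 for each comparison. The red curve lies left of the grey one for castrated minus intact males (medians -0.25 and 0), females minus intact males (-0.26 and 0.01) and buffalo minus cattle (-0.26 and -0.03), and close to it for the other 2.

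The KDEL receptors bind the retrieval signal of ER residents in the Golgi and return them to the ER, the collagen chaperone SERPINH1 and the protein disulfide isomerases among them. KDELR3 had intensities of 97.5, 114 and 113 in yak, 31.2, 73.5 and 99.3 in buffalo, 139, 156 and 149 in females, 181, 220 and 186 in castrated males, and 847, 603 and 378 in intact males. The intact males were above all other arrays, the females lay between castrated males and yak, and the 5 groups overlapped only between yak and buffalo. KDELR3 was 2.82-fold lower in castrated males than in the intact group (log2 fold change -1.50, SE 0.243, adjusted p = 0.0245) and 3.63-fold lower in females than in the intact group (log2 fold change -1.86, SE 0.243, adjusted p = 0.00966). Castrated against intact males did not pass without intact male 2 or without any 1 castrated male, where the highest adjusted p was 0.0979.

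KDELR1 and KDELR2, the other receptors of the family, moved less. KDELR1 had intensities of 255, 230 and 207 in castrated males and 435, 389 and 314 in intact males, which did not overlap, and its log2 fold change was -0.67 (SE 0.172, adjusted p = 0.09). KDELR2 had 690, 755 and 612 in castrated males and 1363, 1002 and 605 in intact males, where the third intact male lay below every castrated male and the other intact males above. Within each array the log2 difference of KDELR3 minus KDELR2 was -2.92 to -2.59 in yak, -3.52 to -2.77 in buffalo, -2.15 to -1.83 in females, -1.84 to -1.64 in castrated males and -0.72 to -0.65 in intact males. This pair was chosen after its values were seen. Levels of different probe sets are not comparable, so the pair shows unequal change over the groups, not which receptor was more abundant.

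The p24 proteins are cargo receptors that shuttle between ER and Golgi in both kinds of vesicle. TMED3 had intensities of 45.4, 56.2 and 55.8 in yak, 74.8, 93.8 and 77.3 in buffalo, 57.6, 69.3 and 60.9 in females, 82.1, 82.7 and 70.9 in castrated males, and 401, 205 and 161 in intact males. The intact males were again above all other arrays, and females were below castrated males on every array. On average over all arrays TMED3 stood at 6.708, above the brightness threshold of 6.42. Its group mean was 7.985 in intact males, but 6.093 in yak, 6.294 in females, 6.561 in castrated males and 6.609 in buffalo. Outside intact males TMED3 thus lay near or below the threshold, and its passing the filter rested on intact males. TMED3 was 2.68-fold lower in castrated males than in the intact group (log2 fold change -1.42, SE 0.261, adjusted p = 0.0387) and 3.23-fold lower in females than in the intact group (log2 fold change -1.69, SE 0.261, adjusted p = 0.0161). Without intact male 1 these log2 fold changes were -1.06 and -1.33 and both passed. Castrated against intact males did not pass without intact male 2 or any 1 castrated male (highest adjusted p = 0.131), and females against intact males did not pass without female 2 or female 3 (highest adjusted p = 0.0602).

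Of the 9 p24 genes, TMED3 alone was called in the cattle comparisons, and 7 had an estimate below 0 in each of the 2 comparisons with intact males. The medians were -0.17 for castrated minus intact males and -0.24 for females minus intact males. TMED9 had intensities of 507, 594 and 558 in females, 609, 660 and 573 in castrated males and 1100, 702 and 620 in intact males. Its females lay below all intact males, while castrated and intact males overlapped. TMED2, whose probe set was the brightest of the family, had its highest group mean in yak.

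**Figure D3:**
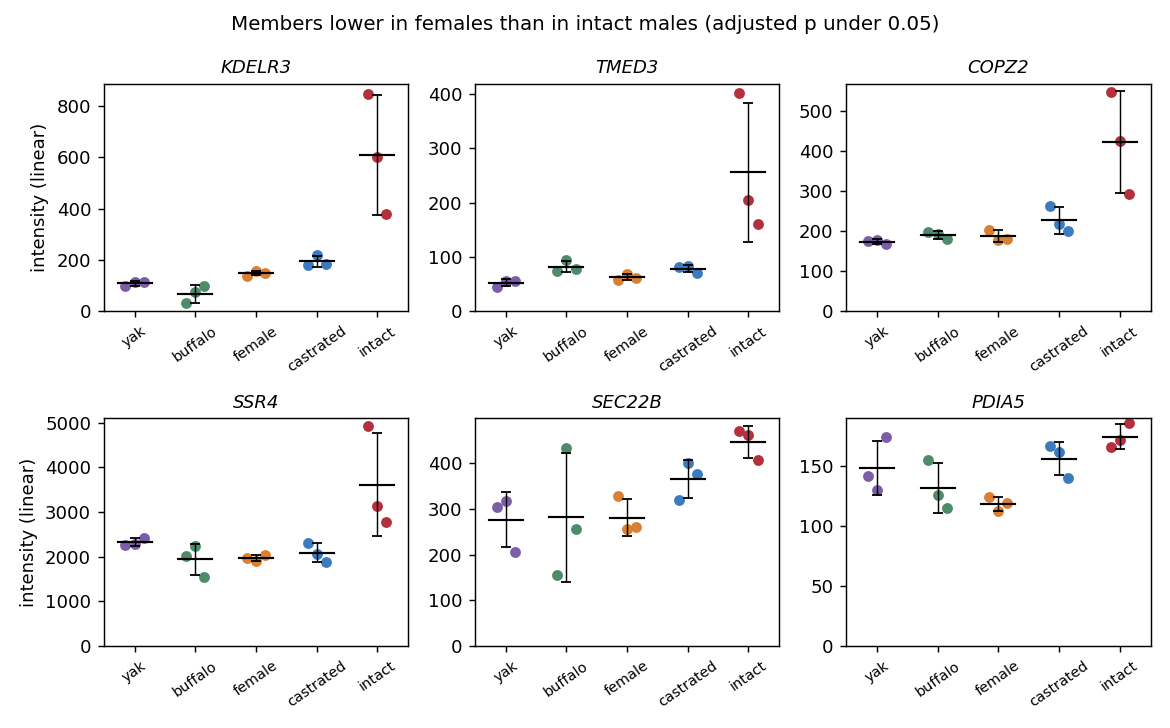
Intensity on a linear scale from 0 (vertical axis) in yak, buffalo, females, castrated males and intact males for the 6 genes that were lower in females than in intact males, with points for the 3 arrays of a group and the mean ± SD as bars. KDELR3, TMED3, COPZ2 and SSR4 are high in intact males alone, while SEC22B and PDIA5 show small steps and overlap with yak or buffalo.

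The COPI coat (coatomer) forms the vesicles that return to the ER. All 7 tested coatomer genes had an estimate below 0, with medians of -0.28 in castrated and -0.3 in female minus intact males. COPZ2, the second form of the zeta subunit, had intensities of 176, 179 and 167 in yak, 198, 192 and 181 in buffalo, 204, 178 and 182 in females, 264, 217 and 200 in castrated males, and 548, 426 and 292 in intact males. Every intact male was above every other array, and the other 4 groups lay close together. COPZ2 was 2.09-fold lower in females than in the intact group (log2 fold change -1.06, SE 0.209, adjusted p = 0.0288), and its second probe set gave a log2 fold change of -1.05 (adjusted p = 0.0424). In castrated minus intact males the log2 fold change was -0.82 (SE 0.209), with an adjusted p of 0.0903 that missed the threshold.

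COPA, the alpha subunit, had intensities of 1231, 1262 and 1254 in females, 1182, 1224 and 901 in castrated males and 2083, 1496 and 1275 in intact males. Both groups lay below all intact males, the closest female by little. COPE, the epsilon subunit, had 791, 777 and 779 in females, 897, 854 and 892 in castrated males and 1141, 1053 and 1035 in intact males. The 3 groups did not overlap, in the order of their collagen index. In females minus intact males the log2 fold change of COPE was -0.45 (SE 0.118, adjusted p = 0.0565), just short of the threshold, and in castrated minus intact males it was -0.28 (SE 0.118, adjusted p = 0.218).

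At the entrance to the ER, the translocon-associated protein complex assists the SEC61 channel with some signal peptides. All 4 of its subunits had estimates below 0 in both comparisons, with medians of -0.45 in castrated and -0.54 in female minus intact males. SSR4, its delta subunit, had intensities of 1967, 1893 and 2044 in females, 2308, 2058 and 1890 in castrated males and 4925, 3142 and 2765 in intact males. The intact males were separate from both, and females and castrated males overlapped. SSR4 was 1.77-fold lower in females than in the intact group (log2 fold change -0.83, SE 0.2, adjusted p = 0.0481), and its log2 fold change in castrated minus intact males was -0.75 (SE 0.2, adjusted p = 0.0983).

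The SEC61 channel genes showed no call in the cattle comparisons. SEC61B, the beta subunit, had intensities of 1111, 1146 and 1037 in females, 1327, 1778 and 1429 in castrated males and 3540, 1925 and 1373 in intact males. Its largest value came from intact male 1, and the third intact male lay within the castrated males. In females minus intact males the log2 fold change was -0.93 (SE 0.295, adjusted p = 0.0855). SEC61A1 had 144, 163 and 154 in females, 183, 194 and 141 in castrated males and 349, 202 and 157 in intact males, so that the third intact male again lay among the others. SEC61G, the gamma subunit and the brightest gene of the channel, had a range over the 5 group means of 0.28 on the log2 scale, against 0.93 for SEC61A1.

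The signal recognition particle was the role group with medians above 0, 0.08 in castrated and 0.06 in female minus intact males, and 3 of its 5 genes had positive estimates in each. SRP68 had intensities of 234, 232 and 220 in females, 242, 229 and 214 in castrated males and 194, 185 and 194 in intact males. Both groups were above all intact males, by a log2 fold change of 0.24 in each (SE 0.099, adjusted p = 0.215 in castrated and 0.149 in female minus intact males), which did not pass. The signal peptidase complex had medians of -0.14 and -0.19. SEC11A, a catalytic subunit of it, had 546, 557 and 527 in females, 654, 762 and 690 in castrated males and 1313, 797 and 627 in intact males, where castrated and intact males overlapped.

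The protein disulfide isomerases form and rearrange disulfide bonds in the ER. PDIA3, which acts on glycoproteins, had intensities of 869, 961 and 873 in females, 1234, 1268 and 913 in castrated males and 2664, 1619 and 1175 in intact males. The females were below every intact male, and the third intact male lay within the castrated males. Its log2 fold change was -0.92 (SE 0.27, adjusted p = 0.0727) in females and -0.6 (SE 0.27, adjusted p = 0.248) in castrated males, each against intact males. PDIA5 had 124, 113 and 119 in females, 167, 162 and 140 in castrated males and 166, 172 and 186 in intact males, with castrated and intact males overlapping and females apart. It fell 1.42-fold in females relative to the intact group (log2 fold change -0.50, SE 0.099, adjusted p = 0.0288).

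The COPII coat buds vesicles from the ER, with SEC23 and SEC24 in its inner and SEC13 and SEC31 in its outer layer. None of its 6 tested genes was called among the cattle groups, and 3 of 6 estimates were below 0 in each comparison with intact males. SEC31A had intensities of 396, 478 and 442 in females, 542, 508 and 375 in castrated males and 1158, 715 and 560 in intact males. The intact males did not overlap either group, although the log2 fold changes of -0.8 in females (SE 0.255, adjusted p = 0.0867) and -0.7 in castrated males (SE 0.255, adjusted p = 0.174) did not pass. SEC13 was uneven within groups, at 183, 173 and 567 in females, 367, 679 and 192 in castrated males and 684, 689 and 550 in intact males. SEC24B, a cargo-binding subunit, went the other way, at 473, 557 and 505 in females, 310, 408 and 375 in castrated males and 326, 357 and 378 in intact males. Its females were above all other cattle, with a log2 fold change against intact males of 0.51 (SE 0.143, adjusted p = 0.0662).

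SEC22B is a membrane fusion protein (SNARE) of vesicles between ER and Golgi. It had intensities of 328, 256 and 261 in females, 321, 401 and 376 in castrated males and 471, 463 and 407 in intact males, with the lowest castrated male inside the range of the females and all castrated males below the intact males. It fell 1.56-fold in females relative to the intact group (log2 fold change -0.64, SE 0.147, adjusted p = 0.0405), and its dimmer second probe set gave -0.39 (adjusted p = 0.0575). SEC22A and SEC22C, relatives of it, were not called.

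Females and castrated males, which differ little in the collagen index, had a median difference near 0 in the machinery, with a lean to lower values in females. None of the 51 genes passed in limma, against 0.0208% of all probe sets, and at an unadjusted p under 0.05 there were 1 higher gene (1.96%), against 3.98% of all probe sets, and 2 lower genes (3.92%), against 3.57%. The median log2 fold change of females minus castrated males was -0.05 over the genes and 0 over all probe sets. The estimate was below 0 for 31 of 51 genes (60.8%), against 7093 of 14409 probe sets. Over the 7139 annotated genes, each at its brightest probe set, 53.3% were below 0 and the median was -0.02. Every female was below every castrated male for 8 of 51 genes (15.7%), against 1234 of 14409 probe sets. Every female was above for 3 of 51 (5.88%), against 1283 of 14409. The smallest unadjusted p belonged to PDIA5, with a log2 fold change of -0.36 (SE 0.099, adjusted p = 0.541), SEC24B, with 0.48 (SE 0.143, adjusted p = 0.554), and SEC22B, with -0.36 (SE 0.147, adjusted p = 0.63).

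Yak had the lowest collagen, and 15 of 51 machinery genes were called against the mean of the 3 cattle groups, which is 29.4%, close to the 29.1% of all probe sets. Of these, 4 rose (7.84%, against 13.2%), namely SRP68, SEC63, SPCS1 and SPCS3, and 11 fell (21.6%, against 15.9%), namely COPE, SEC62, KDELR3, TMED3, COPZ2, SEC23A, SEC61A1, TMED1, COPB2, TMED10 and TMED9. The median was -0.05, against -0.02 over all probe sets. KDELR3 had a log2 fold change of -1.14 (SE 0.237, adjusted p = 0.00323) and TMED3 of -0.85 (SE 0.184, adjusted p = 0.00416).

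The cattle mean includes the intact males. Against castrated males and females alone, 3 genes rose in yak and 3 fell, where 21.6% of all probe sets were called (10% higher and 11.6% lower), and the median was 0.04. KDELR3 then had a log2 fold change of -0.58 (SE 0.251, adjusted p = 0.114), TMED3 of -0.33 (SE 0.195, adjusted p = 0.242) and COPZ2 of -0.22 (SE 0.151, adjusted p = 0.315). The collagen genes kept lower levels in yak in this comparison, with log2 fold changes of -0.54 for COL1A1 (SE 0.17, adjusted p = 0.0354), -1.70 for COL1A2 and -2.23 for COL3A1. Leaving out yak 1 also took the count against all cattle to 6.

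COPE and SEC62 passed in yak under every alternative run. SEC62, which helps some precursors into the translocon after translation, had intensities of 359, 367 and 363 in yak, 571, 520 and 550 in females, 455, 454 and 507 in castrated males and 609, 608 and 499 in intact males. Every yak was below every cattle array, and the log2 fold change was -0.52 (SE 0.1, adjusted p = 0.00209). SEC63, its partner, had 467, 420 and 407 in yak, above every cattle array, which spanned 232 to 402, and rose (log2 fold change 0.49, SE 0.147, adjusted p = 0.0236). The probe sets of SEC63 did not share 1 sign, however. SPCS3, a non-catalytic signal peptidase subunit, rose (log2 fold change 0.57, SE 0.164, adjusted p = 0.0188) with yak at 1409, 1055 and 935, where the lowest yak overlapped the cattle.

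Buffalo differed most. Of the 51 genes, 25 were called against cattle (49%), near the 51.4% of all probe sets, and 20 of these fell, which is 39.2% of the genes, against 28.4% of all probe sets. The 5 that rose were TMED5, SRP19, SEC11C, SEC62 and SPCS3 (9.8%, against 23%). The median was -0.26, against -0.03 over all probe sets, and 38 estimates were below 0 (74.5%), against 52.3%. Over the 7139 annotated genes, each at its brightest probe set, 56.9% were below 0 and the median was -0.08. Against castrated males and females alone, 21 genes were called, 6 higher and 15 lower, where 48.2% of all probe sets were (21.7% higher and 26.5% lower), and the median was -0.11. With quantile normalisation between arrays the median was -0.09, with 13 genes higher and 14 lower, and over all probe sets 4410 were higher and 3472 lower, against 3315 and 4085 without it.

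Of the translocon-associated complex, 3 of 4 subunits fell in buffalo, where 28.4% of all probe sets fell, and the median over the 4 was -0.93. SSR4 did not pass, with a log2 fold change of -0.34 (SE 0.153, adjusted p = 0.0773). SSR3, its gamma subunit, had intensities of 527, 667 and 603 in buffalo, 1339, 1255 and 1324 in females, 1857, 1732 and 1330 in castrated males and 2872, 1903 and 1882 in intact males. All buffalo lay below all cattle, and the log2 fold change was -1.46 (SE 0.147), but the second, dimmer probe set gave -0.29 (adjusted p = 0.245). SSR2, the beta subunit, had 715, 512 and 548 in buffalo, below every cattle array, and fell (log2 fold change -1.23, SE 0.164). SSR1, the alpha subunit, fell on its brightest probe set (log2 fold change -0.63, SE 0.166, adjusted p = 0.00614), and its other sets gave -1.43 and -0.97.

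COPA had 463, 441 and 450 in buffalo, less than any cattle or yak array, and fell (log2 fold change -1.49, SE 0.157). PDIA3 had 291, 368 and 732 in buffalo, also below all other arrays, and fell (log2 fold change -1.45, SE 0.252, adjusted p = 0.000339). KDELR3 fell as well (log2 fold change -1.80, SE 0.237), and had a log2 fold change of -1.24 (SE 0.251, adjusted p = 0.00122) against castrated males and females alone. TMED7, a p24 protein, had 313, 487 and 398 in buffalo, against 642 to 1499 in cattle, and fell on both probe sets, with log2 fold changes of -1.25 (SE 0.166) on the brighter and -0.48 (adjusted p = 0.026) on the other.

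COPZ2 fell in buffalo against all cattle (log2 fold change -0.42, SE 0.142, adjusted p = 0.0249), and TMED3 had a log2 fold change of -0.34 (SE 0.184, adjusted p = 0.14). In buffalo minus castrated males and females TMED3 had a log2 fold change of 0.18 (SE 0.195, adjusted p = 0.464) and COPZ2 of -0.10 (SE 0.151, adjusted p = 0.593), and COL1A1 of -0.06 (SE 0.17, adjusted p = 0.779), while COL1A2 and COL3A1 had -1.55 and -1.52. For TMED10 the brightest probe set gave -0.62 against cattle and the other gave 0.58, each past the threshold, so its direction in buffalo is not settled by these probes.

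**Figure D4:**
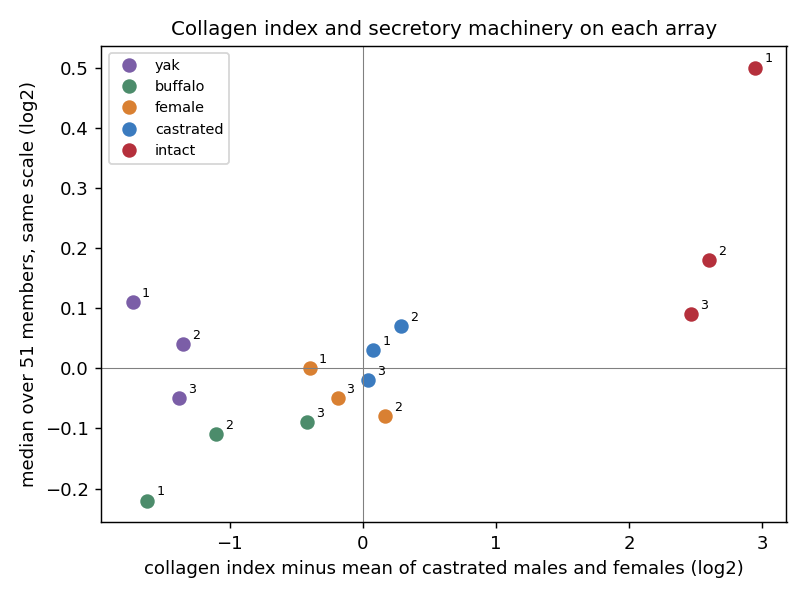
Collagen index (horizontal axis) and median over the 51 genes (vertical axis) on each of the 15 arrays, both as log2 differences from the mean of castrated males and females, coloured by group and numbered by replicate. The intact males lie at the right, at medians of 0.5, 0.18 and 0.09, and yak and buffalo have similar collagen but medians of -0.05 to 0.11 and -0.22 to -0.09.

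Whether the machinery followed collagen among animals of 1 group was asked with a slope, in log2 units of a gene per log2 unit of the index, fitted over the 15 arrays with a mean for each group. None of the 51 genes passed in limma, against 0.0416% of all probe sets, and at an unadjusted p under 0.05 there were 10 positive slopes (19.6%), against 6.36% of all probe sets, and 2 negative ones (3.92%), against 4.79%. The median slope was 0.17, against 0.01 over all probe sets, with 36 of 51 above 0 (70.6%), against 52.7%. Over the 7139 annotated genes, each at its brightest probe set, the median was 0.03 and 44.5% were below 0. The largest were those of PDIA3, at 1.02 (SE 0.226, adjusted p = 0.143), KDELR3, at 1.00 (SE 0.195, adjusted p = 0.0995), SEC61B, at 0.79 (SE 0.316), SEC31A, at 0.69 (SE 0.21), SEC61A1, at 0.64 (SE 0.197), and KDELR2, at 0.61 (SE 0.225). The lowest were those of SEC22C, at -0.72 (SE 0.267), SEC23IP, at -0.27 (SE 0.147), TMED5, at -0.25 (SE 0.085), and PDIA5, at -0.24 (SE 0.127). COPZ2, high in intact males, had a slope of 0.06 (SE 0.21). The probe sets of COPZ2 and those of TMED5 did not share 1 sign of slope, as for 10 of 17 genes with several tested sets.

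The median slope was 0.28 over the 9 cattle arrays, 0.12 over the 12 arrays that were not intact males and 0.09 without buffalo 1, with 0 genes called in each. With the mean of the macrophage markers as the term in place of collagen it was 0.19, with 4 genes called, against 6.96% of all probe sets. Without group means in the fit 17 genes were called, 16 of them positive, against 19.1% of all probe sets. That fit mixes differences between groups, with intact males as a separate cluster, with those inside groups.

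Genes that work beside these were counted from lists of the same pathway. The lists were chosen with earlier results of these data known. In castrated minus intact males, 10 of 19 matrix cargo genes fell, against 1 of 14 collagen-modifying ER enzymes, 0 of 26 ER chaperone and stress genes, 0 of 39 other ER-Golgi transport genes and 0 of 14 translocon and glycosylation partners, with 0 higher in each. In females minus intact males these counts were 13, 5, 1, 0 and 0. The matrix cargo list includes the 3 genes of the collagen index, all of which fell in both comparisons, so its counts are partly those of the index. It also includes DCN and LUM, which are counted among the fibroblast markers below. Over all probe sets 0.84% fell in castrated and 3.37% in female minus intact males, so counts of 0 or 1 in lists of this size are near what the array gives as a whole. The median log2 fold changes, in the same order of lists, were -1.32, -0.48, -0.23, -0.06 and -0.24 in castrated and -1.62, -0.71, -0.36, -0.15 and -0.26 in female minus intact males. FKBP7, an ER prolyl isomerase, fell in both, with log2 fold changes of -1.45 (SE 0.22, adjusted p = 0.0207) in castrated males and -1.66 (SE 0.22, adjusted p = 0.0106) in females. The other genes that fell in females relative to intact males were SERPINH1, the collagen chaperone (log2 fold change -1.38, SE 0.31), PPIB, a prolyl isomerase that acts on collagen (-1.33, SE 0.3), P4HA3, a prolyl hydroxylase subunit (-1.28, SE 0.29), PLOD2, a lysyl hydroxylase (-2.28, SE 0.55), and EDEM2, of ER quality control (-1.24, SE 0.25).

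Between species the partners were called in both directions. MIA3, which loads collagen into COPII carriers, fell in both, with log2 fold changes of -0.63 (SE 0.16, adjusted p = 0.0122) in yak and -1.39 (SE 0.16, adjusted p = 1.42e-05) in buffalo. CALR, an ER lectin chaperone, had log2 fold changes of -0.65 (SE 0.23) in yak and -2.27 (SE 0.23) in buffalo, both past the threshold. Other partners rose past it. In yak these included SAR1B (0.93, SE 0.28) and BLZF1 (0.72, SE 0.17). KRTCAP2 rose in both, by 0.54 (SE 0.11) in yak and 0.56 (SE 0.11) in buffalo, and P4HA3 rose in buffalo (2.87, SE 0.47). Of the 14 collagen-modifying ER enzymes, 5 fell and 0 rose in yak, and 8 fell and 1 rose in buffalo. Of the 39 other ER-Golgi genes, 5 rose and 3 fell in yak, and 4 rose and 13 fell in buffalo. Over all probe sets 13.2% rose and 15.9% fell in yak, and 23% rose and 28.4% fell in buffalo. Against these shares, the 5 other ER-Golgi genes that rose in yak and the 13 that fell in buffalo are near the background. The 3 that fell in yak and the 4 that rose in buffalo are below it. FKBP14, an ER prolyl isomerase, was the 1 collagen-modifying enzyme with a within-group slope on collagen past the threshold, at 1.6 (SE 0.2, adjusted p = 0.0111).

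Some markers of other cells differed between the same groups, and fewer cells of a type and less RNA per cell cannot be told apart in whole muscle. The 12 fibroblast markers above the threshold (of 13 measured, with PDGFRB below) had summed intensities of 6891 to 8862 in yak, 4665 to 6458 in buffalo, 8912 to 11456 in females, 12169 to 13034 in castrated males and 22742 to 31239 in intact males. Of the 12, 6 fell in castrated and 8 in female minus intact males, against 0.84% and 3.37% of all probe sets. PDGFRA, THY1 and TCF7L2 had log2 fold changes of 0.06 to 0.19 in both comparisons that did not pass. CD34 had -0.23 in castrated and 0.18 in female minus intact males. The 15 macrophage markers were all above it on average over the arrays. They had 1976 to 2062 in yak, 1334 to 1824 in buffalo, 1597 to 2811 in females, 2882 to 4520 in castrated males and 7981 to 42318 in intact males, and the highest was intact male 1. Some lay around the threshold intensity of 69.8 outside intact males. There the group means were 25.72 to 89.63 for MSR1, 53.73 to 96.01 for FCER1G and 15.99 to 155.2 for SPP1. Their means in intact males were 705.2, 394.4 and 3713. Of the plasma and B cell markers, which mark cells rich in ER, 3 of 8 were above the threshold, with 586 to 648 in yak, 755 to 900 in buffalo, 814 to 850 in females, 676 to 875 in castrated males and 731 to 1246 in intact males. MZB1, CD79A, MS4A1, POU2AF1 and PRDM1 were below it. The 8 adipocyte markers had 1126 to 1793 in yak, 3005 to 5543 in buffalo, 2871 to 5594 in females, 2823 to 5057 in castrated males and 2907 to 7088 in intact males. In yak 4 of 8 fell, against 15.9% of all probe sets, with a median of -1.39. In buffalo CFD, CIDEC and ADIPOQ fell, with log2 fold changes of -2.14, -2.65 and -1.93, and LEP and LPL rose. The sum in buffalo leans on LPL, which averaged 3032 there, against 815 to 1196 in the cattle groups. Of 10 muscle fibre markers, 3 fell in yak, and 5 fell and 1 rose in buffalo, where 28.4% of all probe sets fell and 23% rose. No marker was at 0 on any array. The part of these cells in the machinery results was not tested.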

How the data were processed

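The deposited table holds the authors' intensity for 24128 probe sets on 15 bovine Affymetrix arrays, on a linear scale. Background step, normalisation and software were not given in the sources used here. Trizol extraction and biotin-labelled cRNA are stated, per the labels' protocols. After 112 control probe sets were set aside, 16 was added to each intensity and log2 taken, with no further normalisation. Those whose mean did not exceed the 40th percentile (6.42) were not tested, which left 14409 and removed 9607. The annotation named 13318 probe sets with 1 symbol and 86 with several, and all 53 genes matched the gene table by Entrez identifier. Of these, 32 had 1 probe set.

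Linear models used limma 3.58.1 in R 4.3.3, with an empirical Bayes trend and two-sided Benjamini-Hochberg adjusted p over all tested probe sets, threshold 0.05. Cattle contrasts were fitted on 9 arrays. Species contrasts and slopes were fitted on 15, with cattle as the mean of its 3 groups. A single exact permutation test of 3 against 3 arrays has 0.1 as its smallest p, so none was used. On simulated data the steps recovered 71.5% of 2-fold changes for castrated minus intact males and 71% for females minus intact males. Genes named were those called, the brightest and the smallest p of each role, and the extreme slopes. KDELR1, SEC22A and SRP72 were named after their values were seen. Members and lists were chosen with earlier results of these data known. Alternatives changed the offset, filter, normalisation, trend, probe set rule, arrays, cattle mean and slope term. No genome or sequence table was used.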

Additional observations from a re-analysis of the deposited data

How the results depend on the processing

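The median stayed below 0 over the machinery genes in castrated minus intact males under all alternatives, between -0.33 and -0.12 when 1 array was left out, and in females minus intact males between -0.37 and -0.15. The counts called were less steady, at 0 to 6 (2 with all arrays) and 1 to 16 (6 with all arrays). With all 15 arrays in the fit 5 genes were called in castrated minus intact males. For females minus castrated males 0 were called throughout, with medians of -0.09 to -0.02. In yak minus cattle, leaving out 1 array gave 6 to 17 calls and medians of -0.07 to -0.01, and castrated males and females as the cattle mean gave 6 calls. In buffalo minus cattle it gave 18 to 28 calls and medians of -0.28 to -0.25, against -0.09 with quantile normalisation and -0.11 with that cattle mean. The within-group slope had 0 calls whichever array was left out, and medians of 0.09 to 0.28, with 4 calls for the macrophage term and 17 without group means. SPCS1 in buffalo turned from -0.22 to 0.04 (adjusted p = 0.697) with quantile normalisation. The causes were not tested.

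Replicate numbers did not pair the samples: over 30 pairs of same-numbered arrays the correlation of deviations from the group means was -0.33 to 0.15, and 5 were above 0.1. With the replicate number as a block, 1 gene was called in castrated minus intact males, 4 in females minus intact males, 0 in females minus castrated males, 13 in yak, 25 in buffalo and 1 for the slope. Probe sets of 1 gene gave estimates of opposite sign for 2 of 17 genes with several sets in castrated minus intact males (SEC63 and SRP72). They did so for 4 in females minus intact males, 6 in females minus castrated males, 5 in yak and 6 in buffalo. For the within-group slope it was 10 of 17, the most of any fit. Signal over background could not be judged, as no detection call was used.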
